A study of Mus musculus with 2 samples.

Results

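The genes of the mitogen-activated protein (MAP) kinase cascade and of the dual-specificity phosphatases (DUSPs) were examined for TCF-1 ChIC-seq signal in mouse lymphoid tissue inducer (LTi) cells, innate lymphocytes of lymphoid organ development. Members were the protein-coding genes whose RefSeq symbol is Mapk, Map2k, Map3k, Map4k or Dusp followed by a number alone. This rule found 67 of 21887 protein-coding genes on placed nuclear chromosomes. They comprised 13 MAP kinases, 7 MAP2K genes, 18 MAP3K genes, 5 MAP4K genes and 24 DUSP genes. An island, a stretch of clustered reads called by the authors, was assigned to a gene when it overlapped the gene body or the 10 kb on either side (the locus) by at least 1 bp. In all, 127 of the 19531 deposited islands lay at a member, and none lay at more than 1 member. Low-FDR islands are those whose false discovery rate in the authors' deposited table is at most 0.05.

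In ChIC-seq an antibody, here against the HMG-box transcription factor TCF-1, carries micrococcal nuclease to chromatin, and the DNA that is cut loose is sequenced. The 2 libraries came from LTi cells of C57BL/6 mice sorted as lineage-negative, CD127+ and CCR6+ cells without KLRG1, NK1.1 or NKp46. The first group was Tcf7+/+ cells from Peyer's patches and the second Tcf7fl/fl-VavCre cells from the small intestinal lamina propria, with 1 library per group. Vav-Cre acts throughout the haematopoietic lineage, so the deletion of Tcf7 in the second group is not limited to LTi cells, and genotype and tissue differed together. The deposited table gives each island 2 read counts, headed peak and control, and ties neither to a sample. No direction between genotypes or tissues is therefore drawn, and every fold compares the peak library with the control library of that table.

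MAP kinase signalling runs through tiers of kinases. MAP4Ks and small GTPases activate MAP3Ks, MAP3Ks phosphorylate MAP2Ks, and MAP2Ks phosphorylate the threonine and tyrosine of the activation loop of a MAP kinase: ERK, JNK, p38 or ERK5. Some of the DUSPs remove these phosphates, and several of these phosphatases are themselves induced by the kinases they switch off. In lymphocytes the pathway carries signals of antigen receptors, cytokine receptors and the TNF receptor family, which includes the lymphotoxin receptor system used in lymphoid organ formation.

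Over the whole table, the 19513 nuclear islands below 200 peak-library reads had a fold of 1.62 (95% interval 1.61 to 1.63). A pooled fold is the ratio of reads summed over islands, after control reads are multiplied by 1.997, the scaling factor behind the deposited folds. Their exact intervals cover counting error only, and reads without molecular identifiers are not independent molecules. Islands were called for reads of the peak library, so folds above 1 come in part from that selection. All 10 listed LTi marker genes, such as Il7r and Ccr6, had an island, against 1 of 6 myeloid and 2 of 6 epithelial markers (none at Csf1r, Lyz2, Epcam or Vil1), 4 of 5 T cell (117 peak and 39 control reads), 6 of 6 B cell (247 and 83 reads), 3 of 6 NK cell and ILC1 and 3 of 6 ILC2 markers. The part of other cells in the results was not tested, and with libraries of whole sorted populations fewer cells of a kind and less signal per cell cannot be told apart.

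Islands were frequent at the genes of the cascade. Of the 67 genes, 54 (80.6%) had an island, where 54.7% of all protein-coding genes had one. A low-FDR island was found at 37 genes (55.2%), with a background of 40.3%. At an FDR of at most 1e-05 the share was 17.9%, near the 15.8% of all genes. A low FDR is not the same as an interval above 1. Most low-FDR islands at members had an exact interval that includes 1, such as that of Map4k1 (56 against 21 reads, 0.796 to 2.32). All 7 MAP2K genes had an island, as did 20 of 24 DUSP genes, 14 of 18 MAP3K genes, 9 of 13 MAP kinase genes and 4 of 5 MAP4K genes. The 13 genes without an island were Mapk4, Mapk11, Mapk13, Mapk15, Map3k10, Map3k13, Map3k15, Map3k19, Map4k3, Dusp9, Dusp21, Dusp26 and Dusp27. Map3k15, Dusp9 and Dusp21, all of these genes on chromosome X, were among them. The 11 genes with 4 or more islands (16.4%, background 6.48%) were led by Map3k14 with 9, Map4k4 with 7, and Mapk14 and Map3k5 with 6 each.

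Long loci can hold more islands by their size alone, so the genes were also described in 4 equal classes of locus length over all genes. In the shortest class, with loci up to 25.7 kb, 6 of 9 members had an island against 33.9% of all genes. In the next classes the counts were 16 of 19 against 59.8%, 11 of 14 against 64.0%, and 21 of 25 against 61.1%. Low-FDR islands lay at 2 of 9 members against 23.5% of all genes in the shortest class, and at 13 of 19 against 41.3%, 7 of 14 against 46.7% and 15 of 25 against 49.8% in the others. The members' share was thus above that of all genes in each class for any island, and in all but the shortest class for low-FDR islands. Across the 67 genes, locus length and number of islands had a Spearman rho of 0.16, and across all 21887 genes 0.22; neighbouring genes share islands, so these are descriptions.

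**Figure D1:**
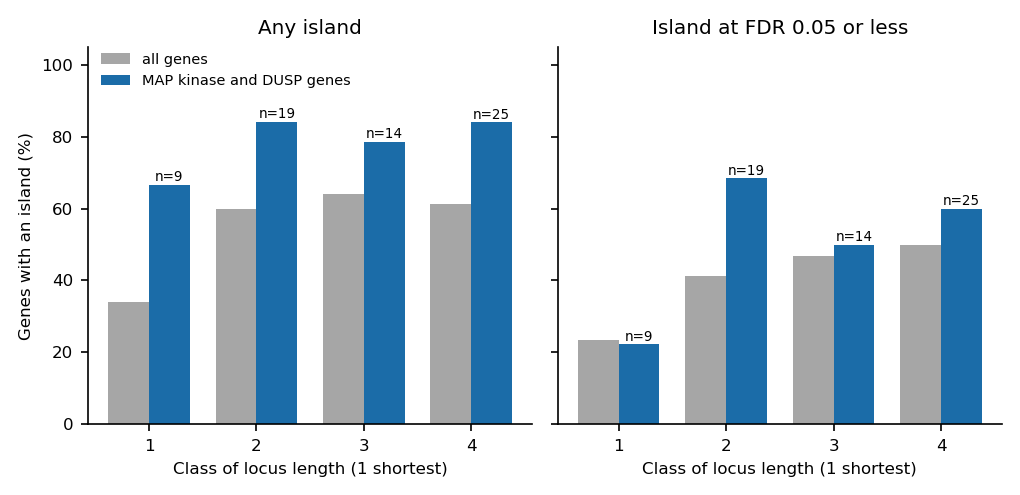
Share of genes (%, vertical axis) with any island (left) or a low-FDR island (right), by length class of the locus (horizontal axis, 1 shortest), for all protein-coding genes (grey) and the MAP kinase and DUSP genes (blue, n above each bar). Blue bars are higher than grey in all 4 classes on the left (6 of 9 genes in the shortest), and about level in the shortest class on the right (2 of 9 against 23.5%).

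Gene starts under an island were frequent among the members. RefSeq promoter windows of GRCm38.p6, the mm10 build, were given for 52 of the 67 genes, and 36 of these (69.2%) had an island over an annotated start, against 37.9% of the 17492 protein-coding genes with such a window. In the DUSP family the count was 15 of 18, in the MAP2K family 6 of 7, in the MAP kinases 5 of 9, in the MAP3K family 8 of 14 and in the MAP4K family 2 of 4. The share of islands that lay over a start was 35.6% at members with a window, near the 33.7% at all such genes. Of the 16 genes with a window and no island over it, 10 had islands elsewhere in the locus, among them Mapk8, Map2k4, Map3k1 and Map4k5.

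The 250 bases before the start are printed for the 5 named genes with the most peak-library reads in an island over the start, and for Mapk10, chosen after its values were seen because it shares a motif with Dusp1. They run 5′ to 3′ on the strand of the gene, from RefSeq GRCm38.p6. Mapk14 and Map4k1 each have a second start under an island, and the window of the first is shown. Capitals mark the cyclic AMP response element TGACGTCA (CRE), and windows without capitals hold none of the motifs searched.
Dusp1, chr17:26508473-26508722, minus strand: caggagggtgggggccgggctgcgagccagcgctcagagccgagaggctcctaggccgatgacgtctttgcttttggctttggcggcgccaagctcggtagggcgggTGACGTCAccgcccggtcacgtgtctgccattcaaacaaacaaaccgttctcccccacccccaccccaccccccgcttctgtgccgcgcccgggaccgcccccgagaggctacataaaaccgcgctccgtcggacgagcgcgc
Mapk10, chr5:103211335-103211584, minus strand: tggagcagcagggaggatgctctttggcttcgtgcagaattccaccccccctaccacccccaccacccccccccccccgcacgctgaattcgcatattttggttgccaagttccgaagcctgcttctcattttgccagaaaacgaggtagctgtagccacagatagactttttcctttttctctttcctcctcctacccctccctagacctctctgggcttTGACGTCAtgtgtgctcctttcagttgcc
Mapk14, chr17:28691092-28691341, plus strand: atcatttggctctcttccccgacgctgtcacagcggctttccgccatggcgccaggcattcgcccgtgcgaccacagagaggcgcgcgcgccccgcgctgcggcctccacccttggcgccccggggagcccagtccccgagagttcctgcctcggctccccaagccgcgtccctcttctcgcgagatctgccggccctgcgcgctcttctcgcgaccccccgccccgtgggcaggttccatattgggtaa
Dusp6, chr10:99262981-99263230, plus strand: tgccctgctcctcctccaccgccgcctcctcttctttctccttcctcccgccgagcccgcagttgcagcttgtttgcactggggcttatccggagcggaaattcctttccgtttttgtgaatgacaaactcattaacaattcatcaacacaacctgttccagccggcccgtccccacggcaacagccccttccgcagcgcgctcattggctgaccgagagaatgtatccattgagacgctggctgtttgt
Map4k1, chr7:28981800-28982049, plus strand: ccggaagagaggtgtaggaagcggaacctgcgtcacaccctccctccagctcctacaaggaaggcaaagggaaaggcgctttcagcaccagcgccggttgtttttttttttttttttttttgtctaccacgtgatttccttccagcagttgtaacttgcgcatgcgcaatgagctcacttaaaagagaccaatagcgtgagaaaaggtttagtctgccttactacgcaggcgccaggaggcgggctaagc
Map3k11, chr19:5688881-5689130, plus strand: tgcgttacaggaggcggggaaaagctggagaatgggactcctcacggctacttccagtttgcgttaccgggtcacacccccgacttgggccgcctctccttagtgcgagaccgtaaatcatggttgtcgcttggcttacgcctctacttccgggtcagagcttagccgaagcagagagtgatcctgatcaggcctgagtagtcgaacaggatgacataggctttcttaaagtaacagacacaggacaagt

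The windows of 250 bases before and 50 after each start were searched on both strands. The CRE letters TGACGTCA were found for 3 of 52 members, Dusp1, Dusp8 and Mapk10, and for 2.54% of all genes with windows. The printed windows of Dusp1 and Mapk10 lie under an island. Among genes with an island over the start, 2 of 36 members and 4.36% of all such genes held the CRE letters. The Dusp8 window holds the letters at 2 places and lies outside its island. The AP-1 letters TGANTCA were found for Dusp13, Map2k6, Map2k7 and Map3k10 (4 of 52, against 8.12%). No member held the TCF letters CTTTGAT, which 3.74% of all genes hold. A match is a description of these letters, and their absence from a window says nothing of binding elsewhere in an island.

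Among the MAP kinases, the JNK genes as a group had the highest pooled fold. Mapk8, which encodes JNK1, had 4 low-FDR islands, which together held 82 peak-library and 11 control-library reads. The pooled fold was 3.73 (1.98 to 7.77). Its reads per island were 38 against 6, 11 against 1, 17 against 0 and 16 against 4. The last of these lay across the 5′ end of the annotated gene but over none of the starts in the promoter table. The island of 17 against 0 reads lay inside the gene on chromosome 14 at 33443201 to 33445400. With 3 control reads put in place of 0 its fold was 2.84, and its exact 95% lower bound was 2.07. Its FDR in the authors' deposited table was 7.27e-20, the lowest of the 127 islands. Member islands without control reads had low FDRs there even with few reads. An island at Dusp14 with 9 against 0 reads had 2.08e-09, though its exact lower bound was 0.988. The widest Mapk8 island, at 33397001 to 33400800, had a fold of 3.17 (1.33 to 9.18). Mapk9, for JNK2, had 1 island over its start with 31 against 11 reads, a fold of 1.41 (0.690 to 3.11). Mapk10, for the mainly neuronal JNK3, had 16 against 3 reads over a start, a fold of 2.67 (0.765 to 14.3). Together the 3 JNK genes had 129 against 25 reads and 2.58 (1.67 to 4.14), with 82 of the 129 reads at Mapk8, and the intervals of Mapk9 and Mapk10 include 1.

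Mapk14, which encodes p38 alpha, had the most reads of the 67 genes, 226 against 72 in 6 islands. It stood at 1.57 (1.20 to 2.08), close to that of all nuclear islands. The 6 islands lay in a row from the first start into the gene, on chromosome 17 between 28690001 and 28715000. The 2 over its annotated starts had 55 against 24 and 31 against 14 reads, folds of 1.15 (0.699 to 1.94) and 1.11 (0.573 to 2.26). Further in, the islands had 71 against 22, 29 against 3, 30 against 6 and 10 against 3 reads. That of 29 against 3 reads, at 28702401 to 28703800, had a fold of 4.84 (1.50 to 24.8). The 3 islands nearest the start also lie at the neighbouring Slc26a8, and without them Mapk14 stood at 2.88 (1.55 to 5.84). Of the other p38 genes, Mapk12 had 30 against 15 reads in 2 islands, both 3′ of the gene and shared with Hdac10 and Tubgcp6, and a pooled fold of 1.00 (0.522 to 2.00). Mapk11 and Mapk13, direct neighbours of Mapk12 and Mapk14, had no island.

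Mapk3, for ERK1, had 3 islands outside the gene with 53 against 19 reads and 1.40 (0.814 to 2.50), and none of them was a low-FDR island. Mapk6, for the atypical ERK3, had 4 islands with 39 against 11 reads over the start and 23 against 5, 16 against 5 and 10 against 3 elsewhere, a pooled fold of 1.84 (1.16 to 3.02). Mapk7, for ERK5, had 20 against 7 reads in 1 island shared with Mfap4.

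The MAP2K genes each had between 1 and 4 islands. Map2k5, the kinase that activates ERK5, had the highest pooled fold of the family, 2.88 (1.35 to 7.06), from 46 against 8 reads. Its 3 islands had 24 against 7 reads over the start, 13 against 1 just upstream of that start, and 9 against 0 near the far end of the gene. Map2k2, which with Map2k1 phosphorylates ERK, had 36 against 17 reads over its start, a fold of 1.06 (0.580 to 2.01), and 20 against 1 in an island 8504 bp outside the gene. That second island, on chromosome 10 at 81133201 to 81134600, had the highest fold of member islands with at least 20 peak-library reads, 10.0 (1.60 to 415), and also lies at Zbtb7a. Map2k1 went the other way, with 34 against 20 reads over its start and a fold of 0.851 (0.476 to 1.56). The p38 kinases Map2k3 and Map2k6 had 37 against 11 reads and 11 against 6, folds of 1.68 (0.841 to 3.66) and 0.918 (0.311 to 3.02). The start of Map2k3 alone had 27 against 5 reads, a fold of 2.70 (1.03 to 8.99). The JNK kinases Map2k4 and Map2k7 stood at 1.53 (0.872 to 2.83) and 1.54 (0.788 to 3.25), with 52 against 17 and 37 against 12 reads.

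The MAP3K genes spanned the range from the most islands to none. Map3k14 encodes NIK, the kinase of the non-canonical NF-kB pathway downstream of the lymphotoxin receptor. It had 9 islands along its length, 7 of them low-FDR, with 163 against 64 reads. Its pooled fold was 1.28 (0.950 to 1.73). The island over the start had 41 against 28 reads, a fold of 0.733 (0.443 to 1.23). Another further in had 24 against 17, a fold of 0.707 (0.364 to 1.40). All islands off the start had 122 against 36 reads, a fold of 1.70 (1.16 to 2.53). The other 7 islands had folds between 1.84 and 6.01, but the exact intervals of all 9 islands include 1 and overlap. Over its islands of at least 20 peak-library reads alone, Map3k14 stood at 0.881. Map3k5, for the stress-activated ASK1, had islands of few reads, with folds from 1.63 to 5.01 and single intervals that all include 1. Its 6 islands had 13 against 4, 9 against 1, 9 against 1, 13 against 2, 10 against 1 and 13 against 2 reads, and the pooled fold was 3.05 (1.60 to 6.40). ASK2, encoded by Map3k6, had 18 against 5 reads in 1 island.

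The MEKK genes Map3k1, Map3k2 and Map3k3 had pooled folds of 1.46 (0.927 to 2.38), 1.22 (0.738 to 2.08) and 1.23 (0.832 to 1.86), from 76 against 26, 56 against 23 and 91 against 37 reads. Inside Map3k1 an island of 12 against 0 reads had a fold of 2.00 with 3 control reads put in place of 0 (exact lower bound 1.39). Map3k3 held an island of 9 against 0 reads. Map3k4 had 14 against 3 reads over its start. Map3k7, for TAK1, had the lowest fold of the 54 genes, 0.709 (0.319 to 1.63), from 17 against 12 reads over its start. Map3k8, for TPL2, the activator of ERK signalling downstream of Toll-like receptors, had 38 against 18 reads and 1.06 (0.589 to 1.97). Of the mixed-lineage and dual leucine zipper kinases, Map3k11 had 58 against 16 reads over its start and 12 against 3 beyond its end, a pooled fold of 1.85 (1.10 to 3.24). Map3k12 had 50 against 22 reads in 1 island shared with Atf7, Npff and Tarbp2. Map3k9, Map3k20 and Map3k21 had 1 island each, with 9 against 3, 13 against 5 and 11 against 5 reads.

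Among the MAP4K genes, Map4k4 had 7 islands with 164 against 52 reads, pooling to 1.58 (1.15 to 2.20). The island with the most reads, 53 against 13, lay 2302 bp outside the gene on chromosome 1 at 39895001 to 39898600, and none of the 7 was shared with another gene. Map4k1 encodes HPK1, a kinase of haematopoietic cells that restrains antigen receptor signalling. It had 1 island over its start with 56 against 21 reads, a fold of 1.34 (0.796 to 2.32). Map4k2 had 124 against 55 reads in 4 islands, all shared with neighbours such as Men1 and Sf1, and a pooled fold of 1.13 (0.816 to 1.58). Map4k5 had 29 against 6 reads inside the gene and 9 against 2 near its start, a pooled fold of 2.38 (1.09 to 5.90).

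Among the phosphatases, the nuclear and inducible MAP kinase phosphatases all had islands. Dusp1, an immediate-early gene whose product switches off p38 and JNK, had the joint widest island of the 127. This island covers the whole gene on chromosome 17 at 26505001 to 26510000 and had 66 against 18 reads, a fold of 1.84 (1.08 to 3.29). The second Dusp1 island, 1391 bp outside the gene, had 17 against 10 reads and 0.851. Dusp5, a nuclear ERK phosphatase, had 4 low-FDR islands, with 26 against 7 reads over the start and 14 against 2, 13 against 3 and 11 against 3 further along. Its pooled fold was 2.14 (1.20 to 4.04). Dusp4 had 40 against 14 reads at one end of the gene and 28 against 3 inside it, at 34814801 to 34816600 on chromosome 8, where the fold was 4.67 (1.44 to 24.0). Over both islands it stood at 2.00 (1.16 to 3.64). Dusp2, a phosphatase of activated lymphocytes, had 31 against 15 reads in 1 island and a fold of 1.03 (0.542 to 2.06).

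Dusp6, the cytoplasmic ERK phosphatase induced by ERK itself, had low-FDR islands over its start, in the gene and beyond its end, with 47 against 17, 28 against 7 and 20 against 6 reads. Together they stood at 1.59 (1.04 to 2.48). Its relative Dusp7 had 26 against 14 reads in 1 island and 0.930 (0.468 to 1.93). Of the phosphatases that act on JNK and p38, Dusp10 had 41 against 14 reads over the start and 17 against 6 in the gene, while 2 islands further in had 8 and 12 reads against 0. Its pooled fold was 1.95 (1.18 to 3.37). Dusp16 had 38 against 15 reads and 1.27 (0.682 to 2.48), and Dusp8 had 10 against 2 in 1 island.

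Of the 14 remaining DUSP genes, the atypical phosphatases, 11 had an island. Dusp3, which can act on ERK and JNK, had the highest pooled fold of the 67 genes, 4.21 (1.67 to 13.6), from 28 against 4 reads over the start and 14 against 1 in an island 7341 bp outside the gene. Both islands also lie at neighbouring genes, Cfap97d1 and Sost. Dusp15 had 3 islands of 12 against 3, 15 against 2 and 13 against 2 reads, pooling to 2.86 (1.27 to 7.57), but all 3 lay between 6995 and 9801 bp outside the gene and were shared with neighbours. Dusp22 stood at 2.25 (1.03 to 5.61), with 23 against 4 reads over its start. Dusp28 and Dusp23 stood at 1.00 (0.496 to 2.12) and 0.952 (0.421 to 2.29), each from 1 island over the start. Dusp12 had 66 against 20 reads and 1.65 (0.989 to 2.88), most of them in an island of 5000 bp shared with Atf6. The others, Dusp11, Dusp13, Dusp14, Dusp18 and Dusp19, had between 11 and 35 peak-library reads and intervals that include 1.

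**Figure D2:**
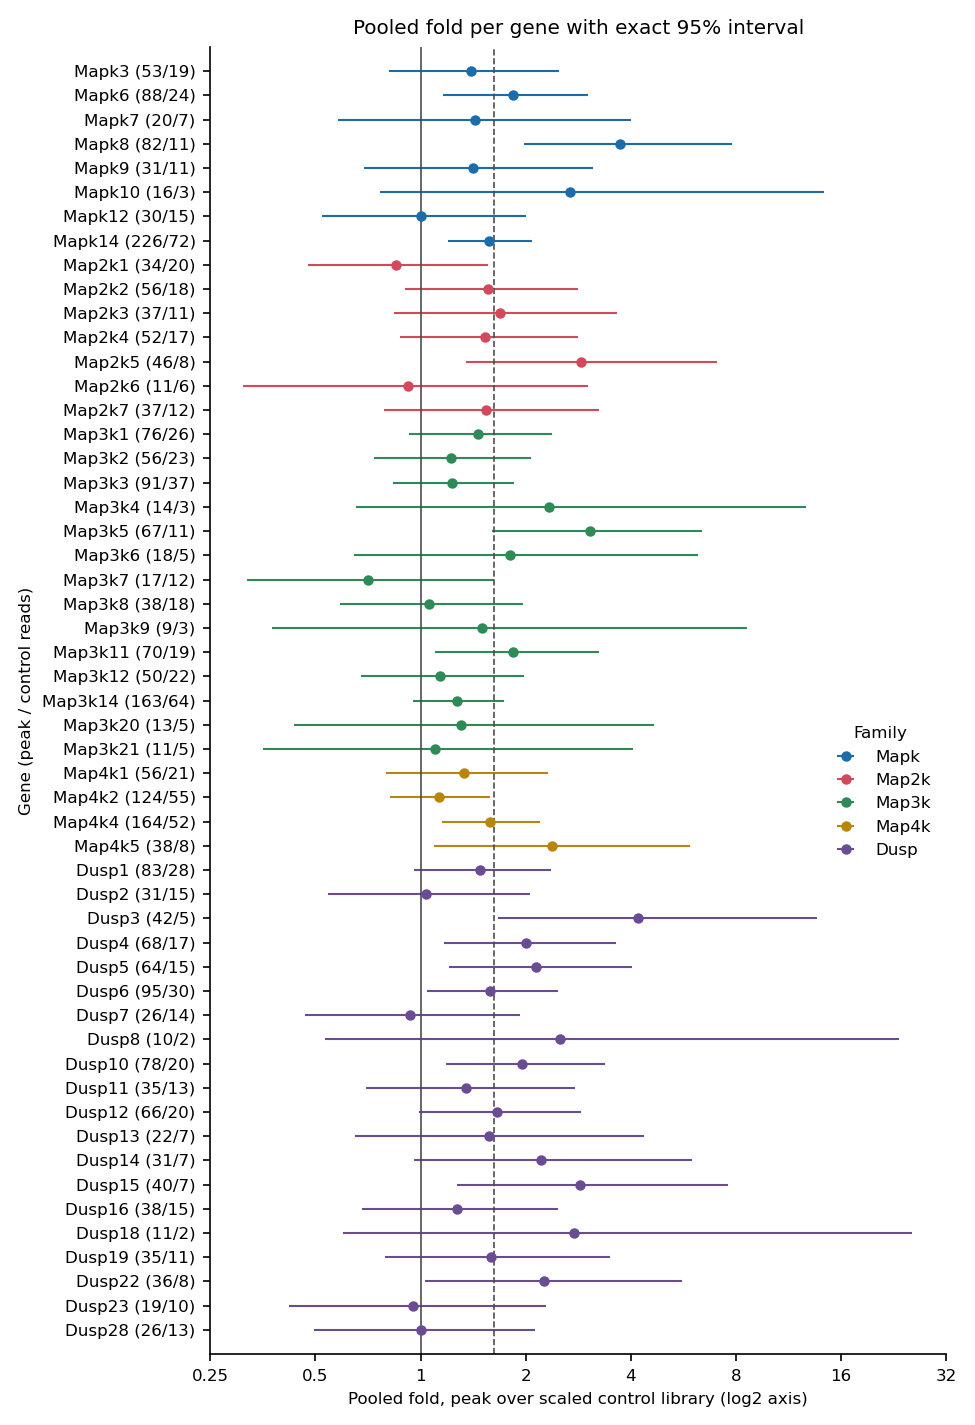
Pooled fold of peak over scaled control library (points, log2 axis) with exact 95% intervals (lines) for 53 genes with an island, coloured by family, with peak and control reads after each name. The solid line is a fold of 1 and the dashed line the 1.62 of all nuclear islands; the intervals drawn include the dashed line except those of Mapk8 and Dusp3, above it, and of Map2k1 and Map4k2, below it.

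As a group the genes had a fold close to that of all genes. The 127 islands held 2762 against 906 reads, pooling to 1.53 (1.42 to 1.65), and the islands of all protein-coding genes stood at 1.59 (1.58 to 1.60). The median gene had a pooled fold of 1.54 against 1.62 over all genes with an island. A fold of 2 or more was reached by 14 of the 54 genes (25.9%, background 32.9%), and a fold below 1 was found for Map2k1, Map2k6, Map3k7, Dusp7 and Dusp23 (9.26%, background 8.55%). The second share is near the background and the first below it. Single islands gave the same picture: 75 of the 127 were low-FDR (59.1%, against 61.2% of islands at protein-coding genes and 62.5% of all islands). Of those with a control read 41 of 120 had a fold of 2 or more (34.2%, background 42.1%), and 7 had no control read (5.51%, background 5.05%). By family, pooled folds ran from 1.37 (1.19 to 1.59) for MAP3K and 1.41 (1.15 to 1.72) for MAP4K genes through 1.49 (1.17 to 1.90) for MAP2K to 1.66 (1.44 to 1.91) for DUSP and 1.68 (1.41 to 2.01) for MAP kinase genes, and the intervals of all 5 families overlap. The share of peak-library reads in each gene was compared with the 76.4% of all nuclear islands by an exact binomial test, two-sided, adjusted over 11973 genes by Benjamini-Hochberg. None of the 54 genes passed, where 0.1% of genes passed above and 0.334% below that share. The lowest adjusted p was 0.263, at Mapk8. At an unadjusted p below 0.05 there were 5 genes (9.26%, background 9.5%), Mapk8 and Dusp3 above the share and Map2k1, Map3k7 and Map4k2 below it. This test compares reads of these 2 libraries, not conditions.

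Islands over starts and islands inside genes differed. The 37 islands over a start of their own gene had 1111 against 424 reads, pooling to 1.31 (1.17 to 1.47), while the 41 islands inside the gene and off its starts had 729 against 170 reads and 2.15 (1.81 to 2.55). The 2 intervals do not overlap. Of 20 genes with control reads both over a start and elsewhere in the locus, 16 had the higher fold elsewhere. Map2k3, Dusp1, Dusp12 and Dusp22 were the exceptions. The share over all genes was not counted, so this count is a description and not a trait of the members. Elsewhere includes islands upstream and downstream of the gene. All islands off the starts pooled to 1.79 (1.59 to 2.03) at members and 1.65 (1.63 to 1.66) at all protein-coding genes. Over all protein-coding genes, islands over starts also stood lower than those inside, at 1.41 (1.40 to 1.43) against 1.81 (1.79 to 1.84). Start islands were deeper, with a median of 27 peak and 11 control reads against 13 and 3 inside genes. With fewer than 20 reads of both libraries together, folds were 1.84 (1.12 to 3.13) over starts and 3.35 (2.43 to 4.74) inside. Islands were called for peak-library reads, so a low total leaves room for few control reads. The part of this split in the higher folds of islands with few reads was not tested. Among islands with at least 20 reads of both libraries together, the difference was smaller: 1.28 (1.14 to 1.45) over starts and 1.74 (1.42 to 2.14) inside, with intervals that overlap at their ends. Of the start islands 51.4% were low-FDR, and of the inside islands 80.5%, against 52.3% and 67.7% over all genes.

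**Figure D3:**
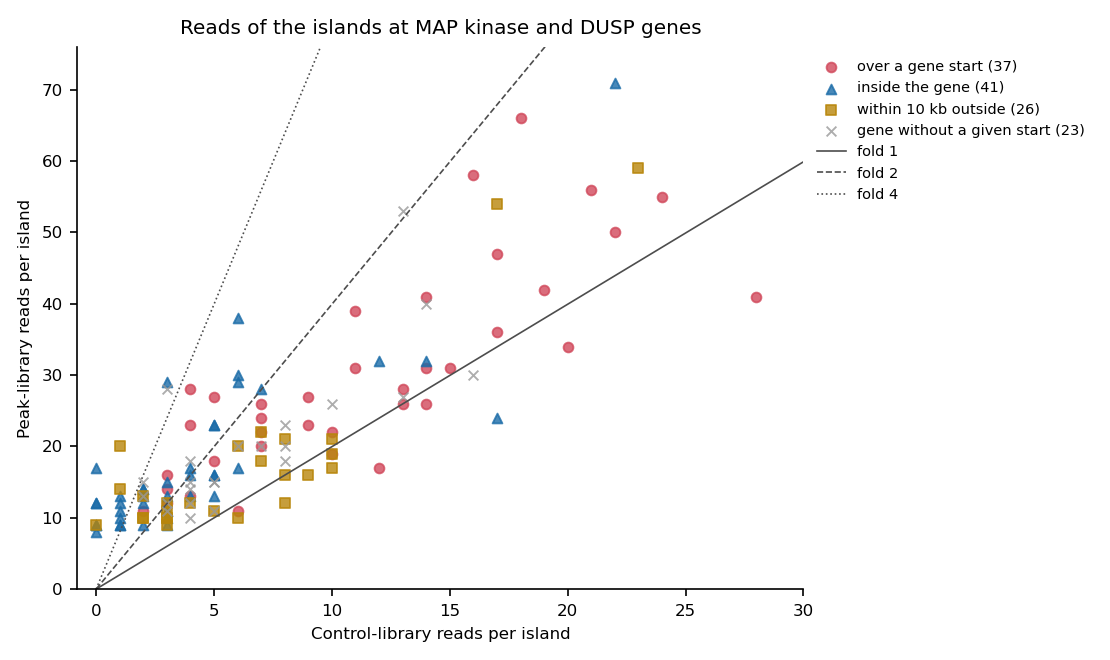
Peak-library reads (vertical axis) against control-library reads (horizontal axis) of the 127 islands, by position relative to their gene, with lines for folds of 1, 2 and 4 after scaling. Islands over starts (red circles) reach 66 peak and 28 control reads, while 6 of the 7 islands without control reads lie inside genes (blue triangles).

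**Figure D4:**
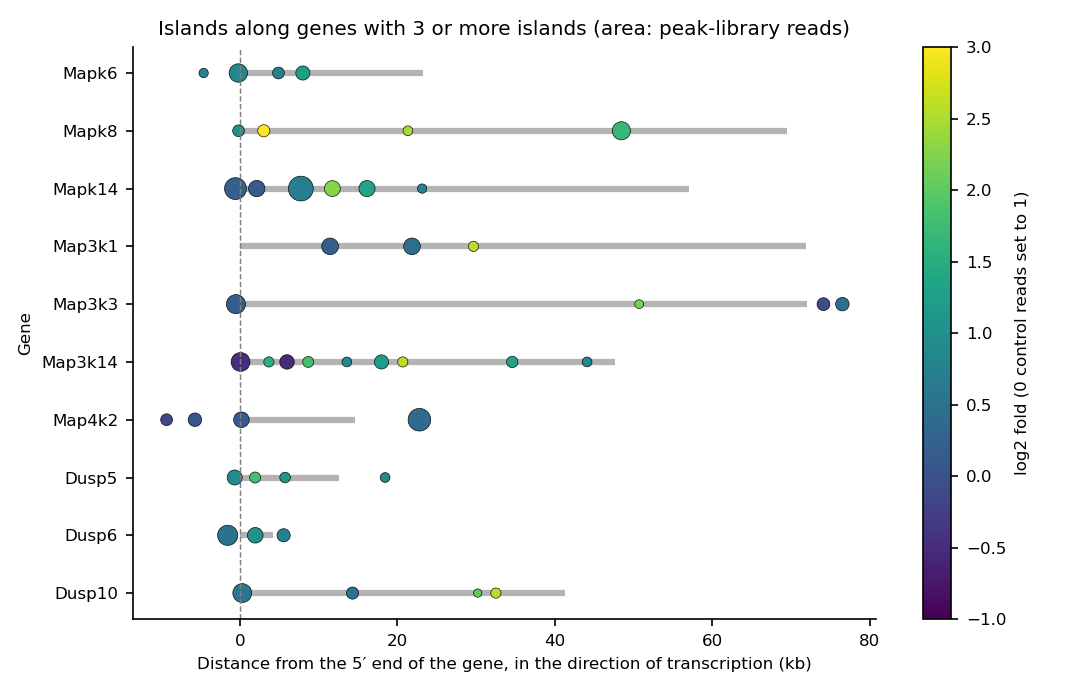
Islands (circles, area by peak-library reads, colour by log2 fold with 0 control reads set to 1) along the 10 genes with a given start, at least 3 islands and a body of at most 100 kb (grey bars), by distance from the 5′ end of the gene in the direction of transcription (kb). In Mapk14 (folds of 1.15 and 1.11) and Map3k14 (0.733) the islands at the start have lower folds than those further in, except the Map3k14 island of 24 against 17 reads.

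Neighbouring genes limit what can be tied to a member. Of the 127 islands, 43 (33.9%) also lay at another protein-coding gene, close to the 34.8% of all islands at such genes. In 16 genes, among them Dusp3, Dusp15, Map4k1, Map4k2 and Map3k11, every island was shared. With islands at a single gene only, 38 of the 67 genes (56.7%) had an island against 25.7% of all genes.

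Among 57 listed pathway genes outside the symbol rule, 50 had an island (87.7%, background 54.7%) and 38 a low-FDR island (66.7%, background 40.3%), and their reads pooled to 1.48 (1.38 to 1.58). Their loci were longer, with a median of 61.3 kb against 37.2 kb for all genes. From the shortest length class to the longest, islands lay at 6 of 6, 6 of 10, 13 of 14 and 25 of 27 of them. The shares of all genes were 33.9%, 59.8%, 64.0% and 61.1%, so the second class was about level. By role, islands lay at 10 of 12 Ras and exchange factor genes, 7 of 9 RAF and scaffold genes, 9 of 10 downstream kinases, 10 of 11 nuclear targets, 6 of 7 Spry and Spred feedback inhibitors, 5 of 5 STE20-like kinases and 3 of 3 TAK1 partners. None of the 50 passed the exact binomial test, and 6 had an unadjusted p below 0.05 (12.0%, background 9.5%). Among the pathway genes with at least 20 peak-library reads, the highest folds were those of Rps6ka2, a ribosomal S6 kinase, at 3.78 (2.01 to 7.86) and of Araf, a RAF kinase, at 3.34 (0.990 to 17.5). The lowest at that minimum were those of Atf2, a factor phosphorylated by JNK and p38, at 0.766 (0.400 to 1.50) and of Mknk1, a kinase of the translation factor eIF4E, at 0.835 (0.450 to 1.59). Elk1, Ksr2, Mapk8ip2, Nras, Rasgrp3, Rps6ka4 and Spry3 had no island.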

How the data were processed

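The submitters' processing notes name Bowtie2 2.4.2, SICER 2.0 and the build mm10; the sources used here give no window, gap or duplicate settings. Per the file headers, each island has 2 deposited read counts, peak and control. The authors' fold is a ratio with 1 scaling factor, 1.997, recovered from the table. The p-value and FDR per island are the authors' deposited values, used here to filter and rank; folds in the text were recomputed from the counts. Table starts count from 0 and positions are given counted from 1. The islands held 483771 peak-library and 189291 control-library reads; whole-library depth is unknown.

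Gene positions came from RefSeq GRCm38.p6, without strand. Strand and starts came from promoter windows, given for 17492 protein-coding genes and not for 15 members (among them Mapk3, Mapk4, Mapk15, Map3k2, Map3k8, Map3k15, Map3k19, Map4k4, Dusp4, Dusp9, Dusp15, Dusp19, Dusp21 and Dusp26). Pooling left out islands of 200 or more peak-library reads, of which members have none. Intervals are exact conditional binomial (Clopper-Pearson, 95%), computed with scipy 1.17.1 in Python 3.11.15. The read-share test and the overlap were tested on simulated reads. Changes were simulated only in genes with more reads than most members have, so the power of the test at members was not shown. No test between conditions was possible with single libraries.

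The named genes are, per family, the 4 with the most reads, the 6 highest and 6 lowest pooled folds among genes with at least 20 peak-library reads, and the islands leading by fold, FDR or width; other members are given briefly. The members and lists were chosen with earlier results of these data known. Alternatives were the locus, the symbol rule, the islands counted, shared islands, overlap, chromosome X and scaling. The Tcf7 locus was not used to check the labels. The values of 1 member are not reported here; it is counted in the totals.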

Additional observations from a re-analysis of the deposited data

How the results depend on the processing

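The depth sets the main limit: with a median of 17 peak and 5 control reads per island, 39 of the 54 gene intervals span a factor of 3 or more, and 1 library per group leaves replicate error unknown. No paired analysis was possible because each group has 1 library and the columns name no sample.

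Among the alternatives, the count of genes with an island was 47 with gene bodies alone (70.1%, all genes 45.7%) and 65 with 50 kb on either side (97.0%, all genes 68.3%). No member passed the read-share test under any alternative run for it. Counting 50 kb on either side gave 247 islands, and islands at a single gene gave 84 islands and a MAP kinase family fold of 2.34. Islands with at least 20 peak-library reads numbered 56, with 6 genes at a fold of 2 or more (15.8%, all genes 26.1%) and a MAP3K fold of 1.12. With islands at an FDR of 0.05 or less, which selects high folds, 75 islands were left, 22 genes had a fold of 2 or more (59.5%, all genes 67.8%), and the pooled fold was 2.09 (MAP kinases 2.19, MAP2K 2.54, MAP3K 2.51, DUSP 2.00). At 1e-05 or less, 17 islands at 12 genes were left with a pooled fold of 4.74 (MAP kinases 4.76, MAP2K 10.5, MAP3K 16.5, MAP4K 2.04, DUSP 6.20).

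Scaling moved every fold by 1 factor. With the table's totals set equal the pooled fold was 1.19 (MAP kinases 1.32, MAP2K 1.16, MAP3K 1.07, MAP4K 1.10, DUSP 1.29), and 7 genes had a fold of 2 or more (13.0%, all genes 17.9%). At this scaling 16 of 54 genes lay below 1, against 5 with the deposited scaling. The share of all genes below 1 was not counted for equal totals. With unscaled reads the pooled fold was 3.05 (3.36, 2.97, 2.74, 2.81 and 3.31 in the same order), and 49 genes had a fold of 2 or more (90.7%, all genes 91.4%). Adding symbols with letters after the number, requiring 0.5 of each island's length in the locus, keeping islands of 200 or more reads and leaving out chromosome X moved no count by over 1.5 times.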
